A study of Mus musculus with 18 samples.

Results

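The genes described here encode the constitutive proteasome: 34 genes, Psma1 to Psma7, Psmb1 to Psmb7, Psmc1 to Psmc6 and Psmd1 to Psmd14, out of 19752 genes measured. They were chosen by name. Each is represented by the probe set that carries its symbol alone, and 5 genes with several such probe sets by the one with the highest mean. All 34 were on the array, and all 34 passed the filter on low values in every fit. By role, 14 belong to the core particle and 20 to the regulatory particle and its assembly chaperones.

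The proteasome degrades proteins that carry ubiquitin chains. Its core particle is a barrel of stacked rings. The outer alpha rings gate the entrance, and the inner beta rings hold the cutting sites. The regulatory particle caps the barrel. Its base unfolds substrates with a ring of ATPases, and its lid removes ubiquitin. T cells can exchange the catalytic beta subunits for immunoproteasome subunits. Dividing cells rely on the proteasome to destroy cyclins and other cell cycle regulators.

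The series profiled double-sorted regulatory T cells of NOD mice on 18 arrays (Affymetrix Mouse Gene 1.0 ST), in 6 groups of 3. The 12 spleen samples came from females of 60 days that carried Foxp3-eGFP-Cre-ERT2 and Rosa26-YFP. In these mice GFP and a tamoxifen-activated Cre are expressed where Foxp3 is, so 4 injections of tamoxifen mark with YFP the cells that express Foxp3 at that time. Adult-tagged cells (GFP+YFP+, replicates 1, 2 and 3) were marked between days 35 and 45, and perinate-tagged cells (GFP+YFP+, replicates 2, 4 and 5) between days 0 and 10. The GFP+YFP- cells, called untagged here, came from mice treated as adults or as perinates (replicates 3, 4 and 5 of each); YFP- cells include those that escaped marking as well as those that expressed Foxp3 only at other times. The 6 thymus samples were CD4+ GFP+ cells of males, 5 weeks old (adult thymus) or 4 days old (perinate thymus), marked by Foxp3-GFP with no tamoxifen treatment in the labels. Spleen and thymus samples therefore differ in sex, age and sorter (FACSAria and MoFlo) as well as in tissue. Nothing in the labels tells separate animals from pools or repeat samples, and the p-values below cover the spread among the samples alone, which may be technical.

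Values are log2 intensities, and a difference of 1 is a doubling. Foxp3 lay between 11.88 and 12.35 on the spleen arrays and between 11.97 and 12.40 on the thymus arrays. Lyz2, a myeloid marker, lay between 5.58 and 7.20 over all 18 arrays. Cd8a was at 9.71 to 10.40 on the thymus arrays and at 6.41 to 6.94 on the spleen arrays. One library went against its label. Perinate-tagged replicate 2 is given as female, but its level of the Y-linked Eif2s3y was 9.79, where the remaining 11 spleen arrays had 3.95 to 4.90, and its Xist level was 8.38, where they had 11.86 to 12.41. Adult thymus replicate 2 stood apart with an interquartile range of log2 intensities of 2.08, against 2.49 to 3.12 on the other arrays. Results that rest on these 2 arrays are given below with and without them, mostly as counts and medians.

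Promoter sequences are shown for 4 subunits named in later results. Psmb5 and Psmb6 carry chymotrypsin-like and caspase-like cutting sites. Psmd1 and Psmd13 passed the test of the tagged against the untagged difference given below. Those calls held in only 2 and 4 of 12 fits that left out 1 array. They are the 250 bases before the RefSeq transcription start (build GRCm38.p6), and capitals mark a match to TGACNNNGC, the core of the antioxidant response element bound by the Nrf1 and Nrf2 factors, which are known to drive proteasome genes.
Psmb5 (chr14:54617996-54618245, minus strand): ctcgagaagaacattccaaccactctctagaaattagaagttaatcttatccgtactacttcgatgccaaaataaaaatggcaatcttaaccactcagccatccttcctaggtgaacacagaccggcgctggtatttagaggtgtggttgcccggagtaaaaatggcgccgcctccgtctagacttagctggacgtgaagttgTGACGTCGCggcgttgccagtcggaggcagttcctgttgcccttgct
Psmb6 (chr11:70525107-70525356, plus strand): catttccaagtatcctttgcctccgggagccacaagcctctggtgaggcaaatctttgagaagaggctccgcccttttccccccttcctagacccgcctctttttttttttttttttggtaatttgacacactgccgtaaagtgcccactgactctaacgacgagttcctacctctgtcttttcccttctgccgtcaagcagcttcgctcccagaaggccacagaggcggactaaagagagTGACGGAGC
Psmd1 (chr1:86064369-86064618, plus strand): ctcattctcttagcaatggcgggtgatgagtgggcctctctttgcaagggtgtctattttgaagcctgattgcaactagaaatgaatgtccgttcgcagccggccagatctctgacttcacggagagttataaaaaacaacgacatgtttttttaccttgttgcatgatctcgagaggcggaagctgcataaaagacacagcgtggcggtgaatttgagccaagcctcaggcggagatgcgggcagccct
Psmd13 (chr7:140882144-140882393, plus strand): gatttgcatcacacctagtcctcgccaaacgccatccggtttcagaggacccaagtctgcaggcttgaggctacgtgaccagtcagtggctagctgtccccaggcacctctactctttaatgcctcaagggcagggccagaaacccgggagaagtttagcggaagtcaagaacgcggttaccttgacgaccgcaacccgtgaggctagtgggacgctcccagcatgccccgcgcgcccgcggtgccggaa
Psmb5 held the match TGACGTCGC from 47 to 39 bases before its start, and Psmb6 held TGACGGAGC from 9 bases to 1 base before its start. Psmd1 and Psmd13 held no match in this window. The RefSeq promoter table listed 28 of the 34 genes, and not Psmb1, Psmb2, Psmb7, Psmc3, Psmd3 or Psmd7. On either strand, TGACNNNGC was found before 5 of these 28 genes (17.9%), against 11.5% of the 27025 genes in the table; the other three were Psmc6, Psmd9 and Psmd12. CCAAT on either strand, the motif of the factor NF-Y, was found before 11 of 28 (39.3%), against 37.5%. No gene of the 28 held both motifs, so their matches do not overlap. Among the 28, TGACNNNGC was present before 3 of 17 genes that were higher in perinate-tagged cells and before 2 of 11 that did not pass that test.

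Over the 6 groups, the genes varied largely together. The mean log2 level of the 34 genes was 9.33 ± 0.13 (SD, n = 3) in adult-tagged and 9.81 ± 0.08 in perinate-tagged spleen cells. It was 9.49 ± 0.20 in adult-treated and 9.58 ± 0.11 in perinate-treated untagged cells. It was 9.20 ± 0.31 in adult thymus and 9.72 ± 0.08 in perinate thymus. Perinate-tagged cells had the highest group mean for 20 of the 34 genes and perinate thymus for 11. Adult thymus had the lowest for 21 genes and adult-tagged spleen for the other 13. The remaining highest means were in perinate-treated untagged cells for 2 genes and in adult-treated untagged cells for 1. The place of adult thymus rested on its replicate 2: without that array its mean was 9.38, above that of adult-tagged cells, and the lowest group was adult-tagged for 19 genes, adult thymus for 14 and adult-treated untagged for 1.

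Core and regulatory genes kept the same order of groups. From adult-tagged through perinate-tagged, adult-treated untagged, perinate-treated untagged, adult thymus to perinate thymus, the core means were 9.74, 10.24, 9.92, 10.01, 9.60 and 10.11, and the regulatory means were 9.05, 9.52, 9.19, 9.28, 8.92 and 9.45. Without adult thymus replicate 2, adult thymus was at 9.83 for the core and 9.06 for the regulatory genes, so that it no longer lay below adult-tagged cells in either. The perinate-tagged arrays lay above all 3 adult-tagged arrays in both parts of the complex, and the 3 perinate thymus arrays above all 3 adult thymus arrays. The untagged groups overlapped each other.

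**Figure D1:**
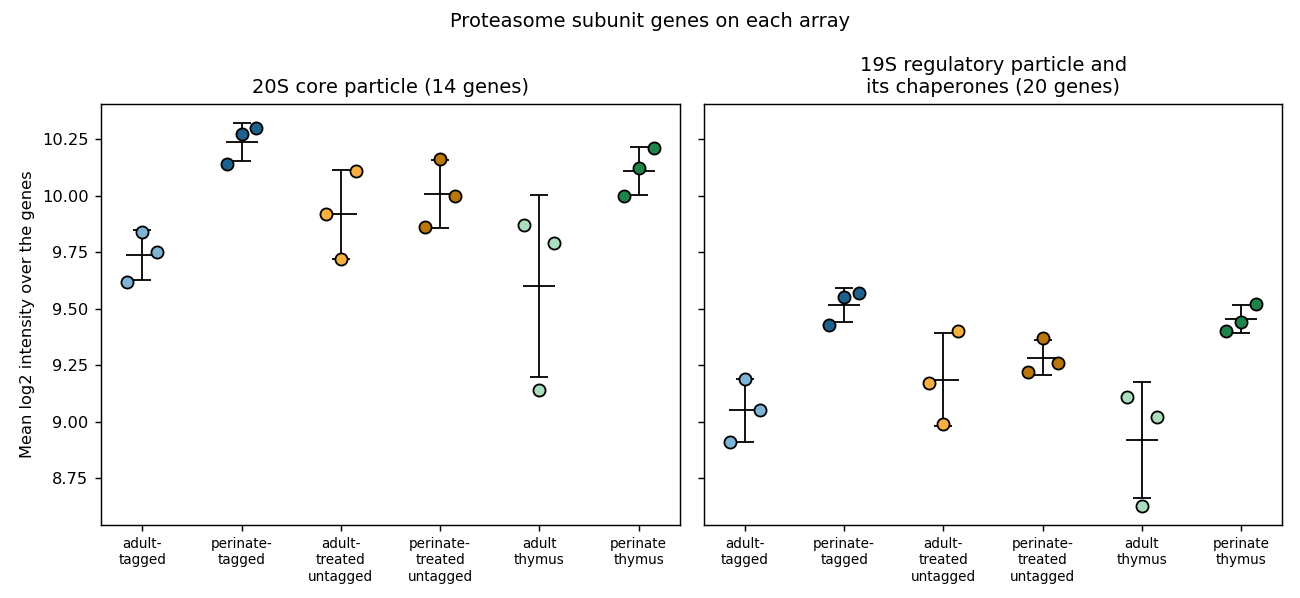
Mean log2 intensity of the 14 core genes (left) and the 20 regulatory particle and chaperone genes (right) on each of the 18 arrays, by group; points are arrays, and bars give the mean and SD of 3 arrays. Both perinate-tagged and perinate thymus arrays sit above their adult counterparts, and adult thymus replicate 2 is the lowest array in both panels.

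Single genes differed in how far they ranged. Psmb4, a structural beta subunit, had the largest span between group means, 1.86 (3.63-fold), from 8.94 in adult thymus to 10.80 in perinate-tagged cells. Psmd2, a ubiquitin receptor of the base, spanned 1.25, and Psmb5 1.09. Without adult thymus replicate 2 the span of Psmb5 was 0.61, that of Psmb4 1.64 and that of Psmd2 1.18. Psmb3, another beta subunit, had the smallest span, 0.32. Of the 34 genes, 25 had their lowest value of all 18 arrays on adult thymus replicate 2, and 6 had it on adult-tagged replicate 1.

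The mean of the 34 genes followed the width of each array's own distribution. Over the 18 arrays its Pearson's r with the interquartile range of log2 intensities was 0.96 and Spearman's rho 0.92; r was 0.93 over the 12 spleen arrays and 0.98 over the 6 thymus arrays. These are descriptions, since the genes are part of the distributions they are set against. The groups were pooled, so differences between groups enter these values. Adult thymus replicate 2, with a width of 2.08 and a mean of 8.84, lay apart from the other arrays, and no correlation without it was computed. The means of eIF3, CCT and the COP9 signalosome, complexes described below, were also lowest on adult thymus replicate 2 (9.98, 9.38 and 9.04). On perinate-tagged replicate 5, the widest array, they were 10.76, 10.28 and 9.54. They were not highest there: on perinate thymus replicate 3, a narrower array, they were 10.79, 10.47 and 9.81. The correlations of these complexes with the width were not computed. The interquartile range was 2.65 ± 0.21 (SD, n = 3) in adult-tagged and 3.05 ± 0.09 in perinate-tagged cells, 2.77 ± 0.28 and 2.95 ± 0.07 in adult-treated and perinate-treated untagged cells, and 2.53 ± 0.39 and 3.03 ± 0.03 in adult and perinate thymus. It differs between the groups compared, so the tagged, interaction and thymus comparisons are also given with the interquartile range as a covariate.

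**Figure D2:**
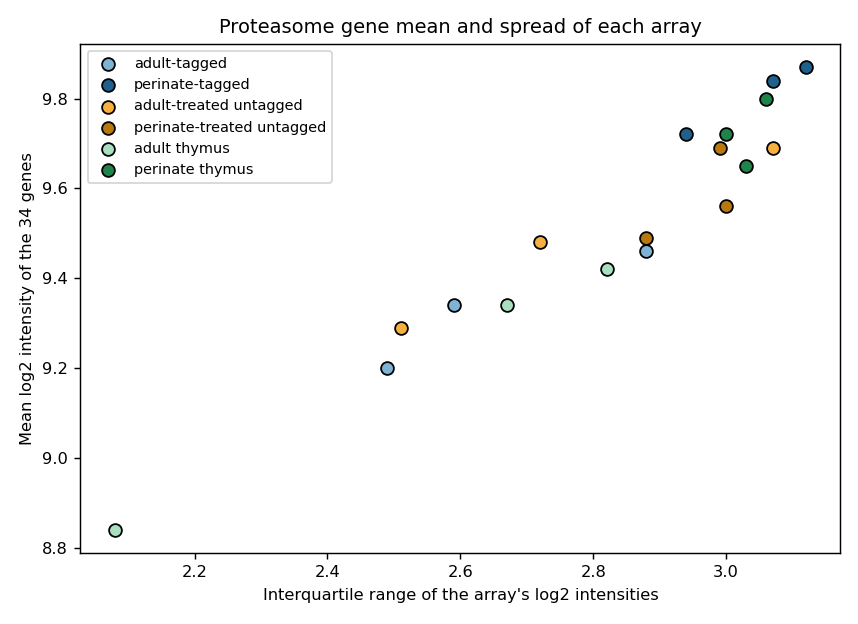
Mean log2 intensity of the 34 proteasome genes on each array (vertical) against the interquartile range of all log2 intensities of that array (horizontal), 1 point per array, coloured by group. The points rise from adult thymus replicate 2 at 2.08 and 8.84 to perinate-tagged replicate 5 at 3.12 and 9.87.

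The first comparison asked how spleen cells marked around birth differ at 60 days from those marked in adult life. Of the 34 proteasome genes, 22 were higher in perinate-tagged than in adult-tagged cells and 0 were lower (limma, Benjamini-Hochberg adjusted p under 0.05), where 16% of the 10350 genes tested were higher and 3.5% lower. All 34 differences were above 0, as were 64.2% of all genes tested. The median difference was 0.509 on the log2 scale, against 0.116 over all genes, and the 34 ranged from 0.05 to 0.73. An unadjusted p under 0.05 was reached by 31 of the 34, against 35.3% of all genes. In 32 of the 34 the perinate-tagged arrays lay above the adult-tagged arrays without overlap, as 33.2% of all genes did. In sorted populations, more cells expressing a gene and more RNA per cell cannot be told apart.

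Of the core genes 10 of 14 were higher, 5 of 7 in each ring, with a median difference of 0.552. In the alpha ring, Psma2 rose by 0.69 ± 0.16 (SE; adjusted p = 0.00949), Psma5 by 0.69 ± 0.18 (0.0178) and Psma1 by 0.61 ± 0.13 (0.00381). For Psma1 the adult-tagged arrays read 9.72, 9.99 and 9.89, and the perinate-tagged arrays 10.40, 10.52 and 10.52. Its groups were thus apart by more than the range of either. Psma6 and Psma7 also passed, at 0.55 and 0.56. Psma4 did not, at 0.37 (95% interval 0.08 to 0.66; adjusted p = 0.0673), nor did Psma3, at 0.10 (-0.27 to 0.46), and the other 2 probe sets of Psma3 gave 0.14 and 0.11.

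Among the beta subunits that cut, Psmb7, which has the trypsin-like site, rose by 0.59 ± 0.13 (adjusted p = 0.00663). Its adult-tagged levels were 8.95, 9.06 and 8.92, and its perinate-tagged levels 9.50, 9.60 and 9.59. Psmb5 rose by 0.42 ± 0.14 (adjusted p = 0.0486), from 11.16, 11.20 and 11.22 to 11.57, 11.60 and 11.68. The replicates of both genes were tight and did not overlap between groups. The call of Psmb7 held in all 6 fits that left out 1 tagged array, and that of Psmb5 in 0 of 6. Psmb6 differed by 0.44 ± 0.15, which missed the threshold (adjusted p = 0.0552; 95% interval 0.11 to 0.77). Of the structural beta subunits, Psmb1 (0.70), Psmb4 (0.58) and Psmb2 (0.41) passed, and Psmb3 did not (0.32, adjusted p = 0.0533).

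Of the regulatory particle and its chaperones 12 of 20 were higher, with a median difference of 0.505. The ATPases, which unfold the substrate and thread it into the core, gave 4 of 6: Psmc6 rose by 0.62 ± 0.14 (adjusted p = 0.00805), Psmc1 by 0.56, Psmc2 by 0.51 and Psmc3 by 0.45. Psmc5 was at 0.51 and Psmc4 at 0.39, with adjusted p-values of 0.0663 and 0.0567. Of the scaffold and receptor subunits of the base, Psmd1 rose by 0.58 ± 0.13 (adjusted p = 0.00736) and Psmd2 by 0.53 ± 0.15 (0.0225). With every probe set in the fit, the second of Psmd2 gave 0.40 and did not pass (limma, adjusted p = 0.104, against 0.0414 for the first). The second probe sets of Psma5 and Psmc1 gave 0.71 and 0.73 and passed there, while the first of Psmc1 did not (0.0601). The ubiquitin receptor Psmd4 differed by 0.34 ± 0.16 and did not pass (adjusted p = 0.127; 95% interval 0.01 to 0.68).

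In the lid 5 of 8 genes were higher. Psmd13 had the lowest adjusted p of the 34 genes, 0.0032, with a rise of 0.64 ± 0.13. It was at 9.14, 9.32 and 9.15 in adult-tagged cells and at 9.80, 9.89 and 9.82 in perinate-tagged cells, a gap of several times the range of either group. Psmd6, a structural lid subunit, had the largest rise, 0.73 ± 0.17 (adjusted p = 0.00902), from 8.04, 8.40 and 8.49 to 8.79, 9.15 and 9.17. Psmd12, Psmd3 and Psmd8 rose by 0.53, 0.50 and 0.45. Psmd14, the lid's deubiquitinase, was at 0.32 ± 0.11 and just missed the threshold (adjusted p = 0.0532; 95% interval 0.09 to 0.56). Of the chaperones that assemble the base, Psmd10 (gankyrin) rose by 0.65 ± 0.15 (adjusted p = 0.00708), while Psmd9 was at 0.24 (-0.13 to 0.61) and Psmd5 at 0.05 (-0.34 to 0.44).

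**Figure D3:**
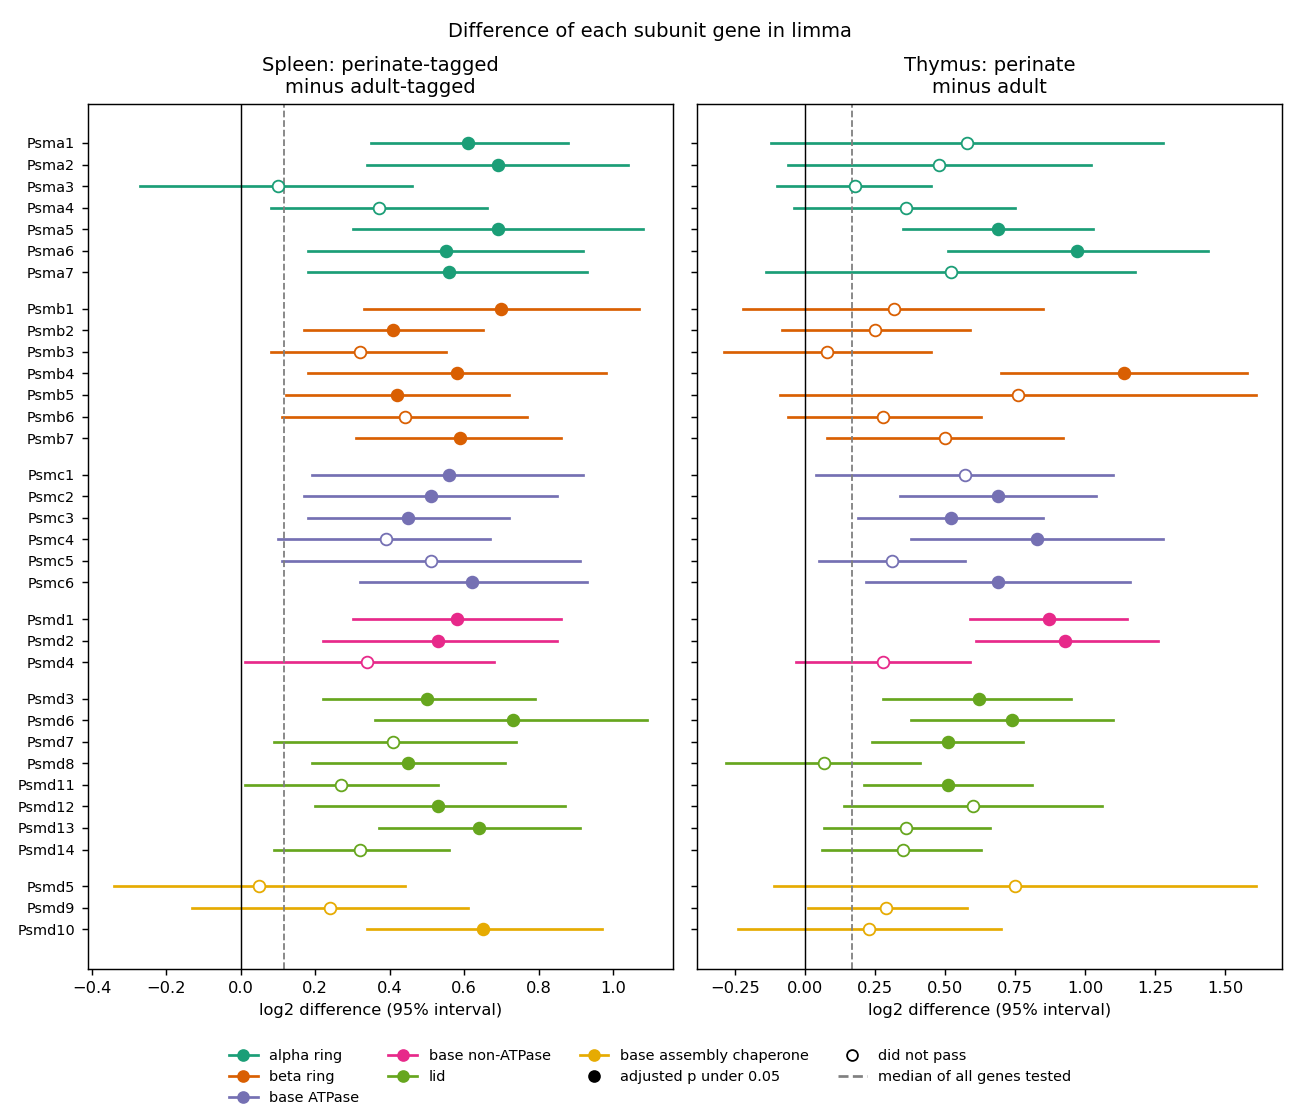
Difference in log2 intensity of each of the 34 genes, perinate-tagged minus adult-tagged spleen cells (left) and perinate minus adult thymus (right), with 95% intervals from limma; filled points have an adjusted p under 0.05, and the dashed line is the median of all genes tested (0.116 and 0.168). All points lie above 0 in both panels, 22 of them filled on the left and 13 on the right.

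How many of these genes passed depended on single arrays and on the width of the distributions. Without perinate-tagged replicate 2, the library that went against its label, 17 were higher, with a median of 0.575. Without adult-tagged replicate 1 or 3 the count was 5 or 10, and without perinate-tagged replicate 4 or 5 it was 11 or 6. The shares of all genes in these fits are not given here, so the counts are not set against them. Psma1, Psmb7, Psmd1, Psmd13 and Psmd10 passed with any 1 of the 6 tagged arrays left out. Psma6, Psmb2, Psmb4, Psmb5 and Psmd8 lost the call without perinate-tagged replicate 2. With the interquartile range as a covariate 0 passed, with 31 differences above 0 and a median of 0.222, and 2.95% of all genes were higher. Under that covariate Psmd13 was at 0.47 (adjusted p = 0.113) and Psma1 at 0.38 (0.137). With the replicate number as a block, which the tagged groups share for 1 number only, 0 passed and the median was 0.391.

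Genes of proliferating cells moved with the proteasome genes: all 9 of the list that were tested, Mki67 and Top2a among them, were higher in perinate-tagged cells, and the mean log2 level of the list was 7.62 ± 0.27 in adult-tagged and 9.67 ± 0.06 in perinate-tagged cells. Mki67 rose by 2.65 ± 0.22. Of the B cell markers 4 of 5 were on the array, and Cd79b rose by 0.66. Their summed linear intensity was 631.5 to 702.4 in adult-tagged and 850.5 to 1008 in perinate-tagged arrays. Their mean log2 level was 6.58 ± 0.04 in adult-tagged and 6.66 ± 0.12 in perinate-tagged cells, so the list did not rise as Cd79b did. Ms4a1, a defining marker, was at 5.62, 5.31 and 5.50 in adult-tagged and at 5.67, 5.01 and 4.94 in perinate-tagged cells. On all spleen arrays it lay between 4.94 and 6.17. Of the 4 epithelial markers Epcam rose by 1.07 while Krt8, a keratin of simple epithelia, was at -0.35 and did not pass (95% interval -0.68 to -0.02; adjusted p = 0.124), and their summed linear intensity was 428.2 to 464.7 and 443.6 to 528.4. The part of these genes in the difference was not tested.

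Genes that work with the proteasome were counted the same way. Of the immunoproteasome subunits, Psmb10 rose by 0.65 ± 0.18 (adjusted p = 0.0212), and Psmb8 (0.42, adjusted p = 0.0529) and Psmb9 (0.43, 0.0765) did not pass. Of the activators and the inhibitor 0 of 5 passed, with the PA28 subunits Psme1 at 0.21 and Psme2 at 0.36. Pomp, the chaperone that matures the core particle, rose by 0.70 ± 0.15 (adjusted p = 0.00528) and was the 1 of 4 core assembly factors tested that did. Vcp, an ATPase that extracts ubiquitinated proteins from complexes, rose by 0.65 ± 0.14 (adjusted p = 0.00601), as 1 of 7 ubiquitin supply and shuttle genes tested. Sem1, a small lid component, rose by 0.51 (0.032). Of Nrf1, Nrf2 and related genes 0 of 4 passed.

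In this tagged comparison, complexes of similar kind gave lower shares of genes passing and lower medians, with no test of the difference between lists. Of the COP9 signalosome, which is related to the lid in structure, 4 of 9 were higher (Cops5 0.67, Cops4 0.48, Cops6 0.45 and Cops2 0.34), with a median of 0.34. Of the chaperonin CCT 1 of 8 was higher (Cct6a, 0.50), with a median of 0.262. Of the translation factor eIF3 3 of 11 tested were higher (Eif3i 0.51, Eif3c 0.48 and Eif3h 0.34), with a median of 0.337.

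The untagged cells served as the control for tamoxifen age. Between perinate-treated and adult-treated untagged cells 0 of the 34 genes passed (limma), as did 0% of all genes, and 0 had an unadjusted p under 0.05, against 3.67% of all genes. The median difference was 0.105, against 0.058 over all genes, with a range of -0.11 to 0.27 and 27 of 34 above 0, where 66% of all genes were. In 0 of the 34 genes were the groups apart without overlap, as they were for 3.35% of all genes with perinate-treated higher and 1.46% with it lower. Psmd13 was at 9.42, 9.64 and 9.78 in adult-treated and at 9.40, 9.55 and 9.70 in perinate-treated untagged cells, which overlap throughout. Among the catalytic and ubiquitin-handling subunits the differences were 0.05 for Psmb5, 0.14 for Psmb6, 0.14 for Psmb7, 0.10 for Psmd2, -0.06 for Psmd4 and 0.03 for Psmd14. The 3 lowest p-values were those of Psmc4 (0.26, 95% interval -0.03 to 0.55), Psmd3 (0.23) and Psmc3 (0.20), each with an adjusted p of 0.995. With the replicate number as a block the count was also 0.

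The tagged difference minus the untagged difference was tested directly. It was above 0 for 32 of the 34 genes, against 55.1% of all genes, with a median of 0.43 against 0.041, and it passed for 2 genes, both in the regulatory particle, where 4.29% of all genes passed in this direction and 0.599% in the other. An unadjusted p under 0.05 was reached by 13 of the 34, against 18.8% of all genes. Psmd13 gave 0.70 ± 0.18 (SE; adjusted p = 0.0357) and Psmd1 gave 0.69 ± 0.19 (adjusted p = 0.0459). Psmd1 was at 9.98, 10.18 and 10.22 in adult-tagged and at 10.63, 10.72 and 10.77 in perinate-tagged cells, and at 10.41, 10.26 and 10.70 in adult-treated and 10.45, 10.28 and 10.31 in perinate-treated untagged cells. The tagged groups did not overlap, and the untagged groups did. The catalytic subunits gave 0.37 (95% interval -0.06 to 0.79) for Psmb5, 0.30 (-0.16 to 0.77) for Psmb6 and 0.44 (0.05 to 0.84) for Psmb7, and the others were 0.43 for Psmd2, 0.41 for Psmd4 and 0.30 for Psmd14. Neither call held with the interquartile range as a covariate (0.61 for Psmd13, adjusted p = 0.0546, and 0.57 for Psmd1, 0.0617) or with the replicate block, where 0 passed. Without perinate-tagged replicate 2 the count was 2 again, with Psmd13 among them and Psmd1 not. The share of all genes in that fit is not given here. The 2 genes lost the call in 8 and 10 of the 12 fits that left out 1 spleen array.

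Tagged cells were also set against untagged cells of mice treated at the same age. After perinatal treatment 0 of 34 genes passed (limma), where 5.49% of all genes were higher and 1.86% lower, and 9 members had an unadjusted p under 0.05, against 22.7% of all genes. The median was 0.238, against 0.02, and 31 of 34 differences were above 0, as were 53.2% of all genes. In 17 genes the tagged arrays lay above the untagged arrays, as they did for 19.7% of all genes. The lowest adjusted p-values were those of Psmb2 (0.38, 0.0544), Psmd14 (0.36, 0.0633) and Psmd2 (0.45, 0.0859). Psmb5 was at 0.42, Psmb7 at 0.24, Psmb6 at 0.15 and Psmd4 at 0.05. Of the partner genes, Psme2 rose by 0.65 (adjusted p = 0.00836) and Pomp by 0.54 (0.043). The count was 0 without perinate-tagged replicate 2, and 1, 2 or 3 when adult-treated untagged replicate 3, 4 or 5 was left out. The shares of all genes in these fits are not given here. Other genes moved with this comparison. The proliferation list was higher in tagged cells in 9 of 9 genes tested, with means of 8.50 ± 0.28 in perinate-treated untagged and 9.67 ± 0.06 in perinate-tagged cells. Cd79b, the 1 B cell marker tested, rose by 0.81 (adjusted p = 0.00286). The summed linear intensity of the B cell markers was 564.1 to 690.5 in untagged and 850.5 to 1008 in tagged arrays. Their mean log2 level was 6.53 ± 0.08 in untagged and 6.66 ± 0.12 in tagged cells, so the list did not rise as Cd79b did. Ms4a1 was at 5.43, 5.18 and 5.17 in untagged and at 5.67, 5.01 and 4.94 in tagged cells, which overlap. The median log2 level of the small nucleolar RNA probe sets was 9.10 ± 0.42 in perinate-treated untagged cells, the highest of the 6 groups, and 8.40 ± 0.22 in perinate-tagged cells. Their part in the proteasome differences was not tested.

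After adult treatment the differences lay the other way: 27 of 34 were below 0, with a median of -0.154 against -0.022 over all genes, and 0 passed (limma), where 0.271% of all genes were lower and 0% higher. Above 0 were 46.3% of all genes. Of the members 6 had an unadjusted p under 0.05, against 16.4% of all genes. The tagged arrays lay wholly below the untagged ones for 6 members and wholly above for 0, against 10.3% and 6.7% of all genes. The lowest adjusted p-values were those of Psmd13 (-0.41, 0.168), Psmc6 (-0.43, 0.189) and Psma7 (-0.47, 0.229). Psmd4 was at -0.36, Psmb7 at -0.20, Psmb6 at -0.15, Psmb5 at 0.05, Psmd14 at 0.07 and Psmd2 at 0.02. Without adult-treated untagged replicate 3 the count was 1, lower in tagged cells, and the share of all genes in that fit is not given here. The median was -0.289 without adult-treated untagged replicate 4, -0.064 without replicate 5 of that group and -0.077 without adult-tagged replicate 1. It was -0.067 with the interquartile range as a covariate and -0.029 with the replicate block. The proliferation list was at 7.62 ± 0.27 in adult-tagged and 8.50 ± 0.20 in adult-treated untagged cells, with 4 of 9 genes lower in tagged cells. Its part in the proteasome differences was not tested.

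**Figure D4:**
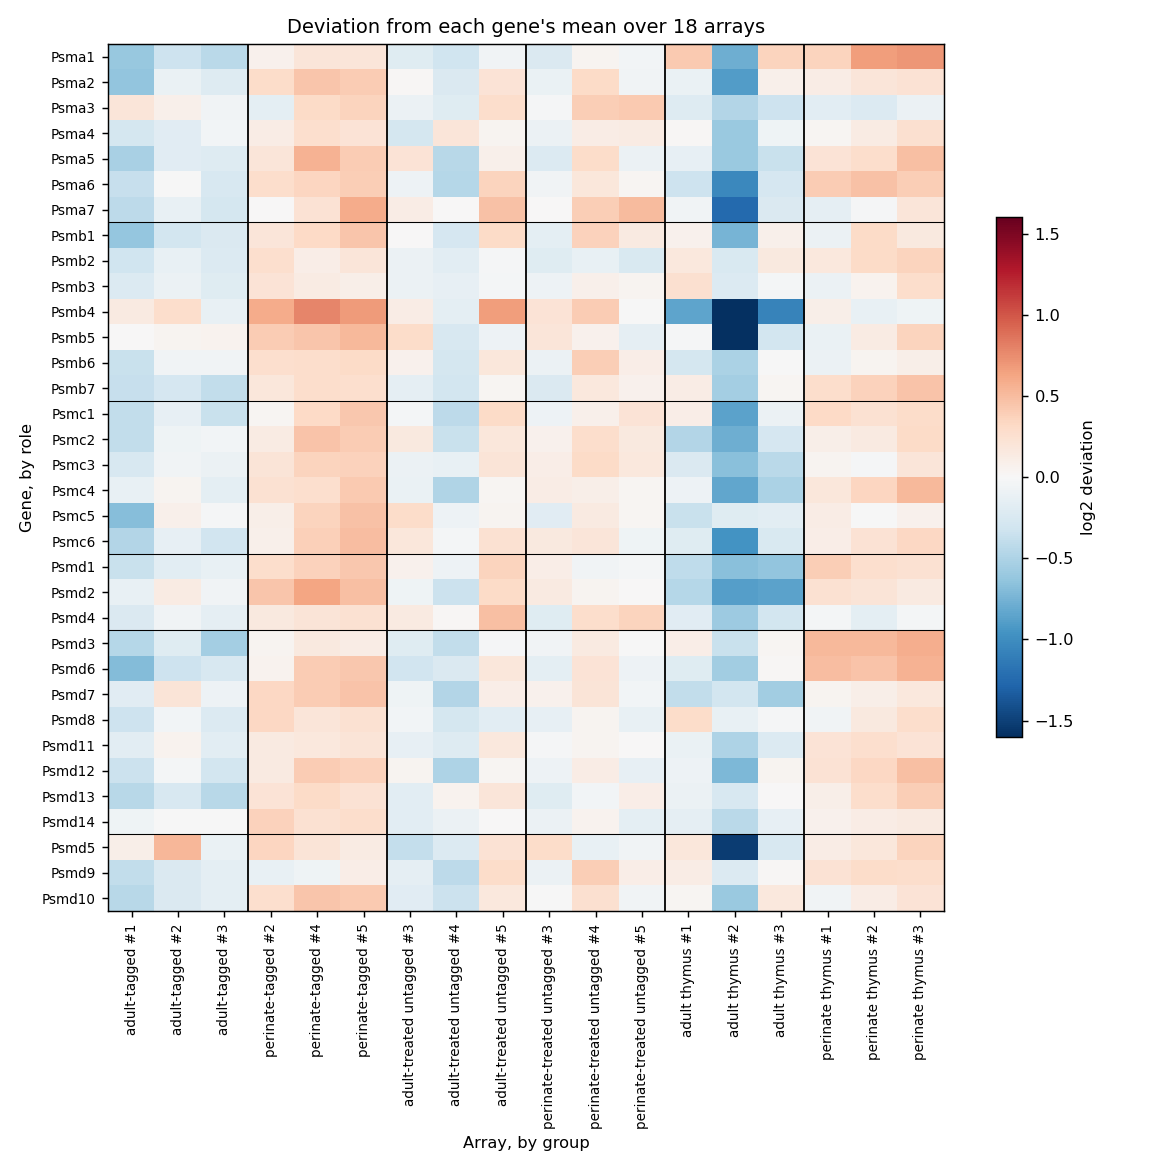
Log2 deviation of each of the 34 genes (rows, by role) from its own mean over the 18 arrays (columns, by group, with replicate numbers); red is above and blue below the mean. The perinate-tagged and perinate thymus columns are mostly red, and adult thymus replicate 2 is the bluest column, with Psmb4, Psmb5 and Psmd5 lowest.

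The thymus comparison asked whether Foxp3-GFP+ thymus cells differ between 4 days and 5 weeks of age. Of the 34 genes 13 were higher in perinate thymus and 0 lower (limma), where 18.5% of the 10650 genes tested were higher and 5.84% lower. All 34 differences were above 0, as were 65% of all genes. The median was 0.514, against 0.168 over all genes, and the range 0.07 to 1.14. In 23 genes the groups did not overlap, against 36.9% of all genes in this direction. An unadjusted p under 0.05 was reached by 20 members, against 43% of all genes.

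By particle, and with no test of the contrast between them, the genes that passed were 10 of 20 regulatory and chaperone genes (median 0.542) and 3 of 14 core genes (median 0.491). Of the core genes, Psmb4 had the largest rise, 1.14 ± 0.19 (SE; adjusted p = 0.00656), from 9.27, 8.51 and 9.04 in adult thymus to 10.21, 9.99 and 10.04 in perinate thymus. All 3 adult thymus arrays lay below every other array of the series for this gene. Psma6 rose by 0.97 ± 0.20 (adjusted p = 0.0139) and Psma5 by 0.69 ± 0.15 (0.0157), though the second Psma5 probe set gave 0.31. The cutting subunits did not pass, with Psmb5 at 0.76 (95% interval -0.09 to 1.61), Psmb7 at 0.50 (0.08 to 0.92) and Psmb6 at 0.28 (-0.06 to 0.63). Psmb5 was at 11.15, 9.56 and 10.87 in adult thymus, where replicate 2 stands far below the others, and at 11.05, 11.29 and 11.52 in perinate thymus.

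In the base, both large scaffold subunits rose: Psmd2 by 0.93 ± 0.14 (adjusted p = 0.00426) and Psmd1 by 0.87 ± 0.12 (0.00289). Psmd1 was at 9.93, 9.67 and 9.71 in adult thymus and at 10.73, 10.61 and 10.58 in perinate thymus. Psmd2 was at 9.71, 9.29 and 9.31 and at 10.42, 10.37 and 10.31. For both genes the groups were far apart, and for Psmd2 the second probe set gave 0.71. Psmd4 did not pass, at 0.28 (95% interval -0.03 to 0.59; adjusted p = 0.15). The ATPases Psmc4, Psmc2, Psmc6 and Psmc3 rose by 0.83, 0.69, 0.69 and 0.52.

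In the lid 4 of 8 genes rose: Psmd6 by 0.74 ± 0.16 (adjusted p = 0.0153), Psmd3 by 0.62, Psmd7 by 0.51 and Psmd11 by 0.51. The deubiquitinase Psmd14 was at 0.35 (95% interval 0.06 to 0.63; adjusted p = 0.0707) and Psmd13, the gene with the lowest p between tagged cells, at 0.36 (0.0722). Psmd8 was at 0.07 (-0.28 to 0.41). Of the base chaperones 0 of 3 passed, with Psmd5 at 0.75 (-0.11 to 1.61); its value on adult thymus replicate 2 was 7.40, against 9.10 and 8.67 on the other adult arrays.

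Adult thymus replicate 2 bore on the sizes. Without it 17 genes were higher, and the median fell to 0.286. Without adult thymus replicate 3 the count was 6, and without any 1 of the perinate arrays it was 3. Psmb4, Psmd1 and Psmd2 were called in each of these fits. The shares of all genes in these fits are not given here, so the counts are not set against them. With the interquartile range as a covariate 5 genes passed, with a median of 0.088 and 22 differences above 0, and 10.6% of all genes were higher. The 5 were Psmd1 (0.74), Psmd2 (0.73), Psmb4 (0.65), Psmd7 (0.61) and Psma6 (0.46). The proliferation list moved here too, 9 of 9 higher, with means of 8.08 ± 0.24 and 9.70 ± 0.11. Cd8a, a marker of CD8 T cells and of immature thymocytes, fell by 0.61 (adjusted p = 0.00735). All 4 genes of the CD8 and NK list were on the array, and their summed linear intensity was 1900 to 2038 in adult and 1369 to 1459 in perinate thymus, with the NK markers Klrb1c and Ncr1 at 3.89 to 4.42 and 4.82 to 5.59. The summed linear intensity of the myeloid markers was 370.2 to 502.6 in adult and 334.9 to 362.2 in perinate thymus. The part of these lists in the difference was not tested.

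Among partner genes in the thymus, Psmb9 rose by 0.98 ± 0.15 (adjusted p = 0.00441), while Psmb8 was at 0.36 (0.0631) and Psmb10 at 0.19 ± 0.43 (0.749). Psmb10 was at 11.01, 9.27 and 11.03 in adult thymus and at 10.39, 10.67 and 10.81 in perinate thymus. Without adult thymus replicate 2 it was lower in perinate thymus, at -0.40 (adjusted p = 0.0259). The activators Psme3 and Psme4 rose by 0.57 and 0.53, and Psme1 (0.12) and Psme2 (0.17) did not pass. The associated Sem1, Ecpas and Uchl5 rose by 0.87, 0.72 and 0.48, and Vcp and Ufd1 by 0.75 and 0.63. Of the core assembly factors 0 of 4 passed. Nfe2l2, which encodes Nrf2, fell by 0.42 (adjusted p = 0.0419). Of the COP9 signalosome 2 of 9 were higher, of CCT 6 of 8 and of eIF3 4 of 11, with medians of 0.314, 0.591 and 0.485. Here CCT lay above the proteasome genes, of which 13 of 34 passed with a median of 0.514. The difference between lists was not tested.

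The spleen difference (perinate-tagged minus adult-tagged) and the thymus difference were compared in a fit of all 18 arrays. No proteasome gene passed: the count was 0 of 34 (limma), where 3.89% of all genes were higher and 2.56% lower, and 0 members had an unadjusted p under 0.05, against 22% of all genes. The median was -0.02, with 14 of 34 above 0, as were 44.8% of all genes. The differences were -0.34 (95% interval -1.13 to 0.46) for Psmb5, 0.16 (-0.30 to 0.62) for Psmb6 and 0.09 (-0.37 to 0.54) for Psmb7. The lowest p-values were those of Psmb4 (-0.56, -1.15 to 0.03), Psmc4 (-0.44, -0.93 to 0.04) and Psmd2 (-0.40, -0.84 to 0.04), and Psmd4 was at 0.07 and Psmd14 at -0.02. Each of these intervals includes 0 and is wide beside the differences themselves, so equality of the spleen and thymus differences was not shown. The count was 0 without perinate-tagged replicate 2 (median 0.067) and without adult thymus replicate 2 (0.156). With array weights 15 genes passed, 12 of them higher and 3 lower, where 25.2% of all genes were higher and 21.5% lower.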

How the data were processed

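The table deposited by the authors holds linear intensities, 1 per probe set and array. The submitters' processing notes name RMA and Affymetrix Power Tools without versions; which arrays were normalized together is not given in the sources used here. Of 24922 probe sets, 21425 carried 1 gene symbol, 1399 several and 2098 none; the brightest per gene was kept. Values were log2 transformed with no further normalization. The fits took genes of which some group mean reached the median of all values, 132.7 (7.052 on the log2 scale): 10350 genes in the fit of 12 spleen arrays, 10650 in that of 6 thymus arrays and 10889 in that of all 18. limma 3.58.1 (R 4.3.3) gave two-sided moderated tests for 7 contrasts, adjusted by Benjamini-Hochberg across every gene in the contrast, with a threshold of 0.05. For 1 gene in 2 groups of 3, the smallest p of an exact permutation test is 0.1. Arrays carry no depth; precision is limited by how many there are.

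The members, lists and contrasts were chosen with earlier results of these data known. Genes were named by rule: catalytic, deubiquitinating and ubiquitin-binding subunits always, members past 0.05 in the tagged and thymus contrasts, in other contrasts those past 0.05 or the 3 with the lowest p, up to 4 per partner list, immunoproteasome and PA28 subunits, and check genes. Those named for their span, their lowest array or their stability, and those that missed the threshold, were added after their values were seen. Replicate numbers were used as a block in alternative fits only, and the main fits held no pairing. Deviations of same-numbered untagged arrays correlated at 0.63, 0.14 and 0.47 over genes, although the labels give no shared source. Differently numbered untagged arrays of the 2 groups correlated at -0.64 to 0.30. The values 0.30 and 0.27 among these exceeded the 0.14 of replicate 4, so the pairing is uncertain. In thymus the same-numbered correlations were -0.05, 0.06 and 0.12. The fits were tested on simulated data. Alternatives were quantile normalization, median centring, other filters and probe set rules, array weights, covariates, blocks and leaving out arrays. Plots used matplotlib 3.10.9 (Python 3.11.15). The chimera arm of the series was not analysed here.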

Additional observations from a re-analysis of the deposited data

Results flagged for a closer look

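For 2 of the 34 genes, an excess of the perinate against adult difference in tagged over untagged spleen cells passed the test. The median excess over the 34 genes was 0.43, so genes that did not pass are not shown to lack it. The test was a limma interaction test with Benjamini-Hochberg adjustment over 10350 genes, where 4.29% of all genes passed in this direction. The count of members is near that share and was not tested against it. For Psmd13 the tagged difference exceeded the untagged one by 0.70 on the log2 scale (adjusted p = 0.0357), and it was 0.64 in tagged and -0.06 in untagged cells. For Psmd1 the excess was 0.69 (adjusted p = 0.0459), with 0.58 in tagged and -0.11 in untagged cells. In all 3 perinate-tagged arrays both genes were above all 3 adult-tagged arrays. The call held in 4 of 12 fits that left out 1 array for Psmd13 and in 2 of 12 for Psmd1. Both calls were lost with the array interquartile range as covariate (adjusted p = 0.0546 for Psmd13 and 0.0617 for Psmd1) and with the replicate block, where 0 genes passed.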

How the results depend on the processing

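The number of proteasome genes called higher between tagged groups (22) was 32 with array weights, where 41.1% of all genes were higher, 28 with median centring, 12 with quantile normalization (median difference 0.336), 0 with the interquartile range as a covariate (0.222), 10 without the 2 narrowest spleen arrays, and 0 with the replicate block (0.391); it ran from 5 to 28 with 1 spleen array left out (medians 0.438 to 0.605). The interaction count (2) was 1 with median centring, 0 with no filter and 5 with array weights, where 8.1% of all genes were higher. It was 0 with the covariate (median 0.259), 0 without the 2 narrowest arrays and 0 with the replicate block (0.289). With 1 array left out it was 0 to 2 (medians 0.293 to 0.532). The perinate-treated count (0) was 18 with array weights, where 22.5% of all genes were higher, and 3 with the covariate, where 5.7% were. It was 2 with a trended and robust prior, 1 without the 2 narrowest arrays and 0 to 3 with 1 array left out. The adult-treated count (0) was 0 to 1. The thymus count (13) was 19 with all 18 arrays in the fit and 5 with the covariate (median 0.088), where 10.6% of all genes were higher. With 1 array left out it was 3 to 18 (medians 0.286 to 0.627). The spleen against thymus count (0) was 1 with quantile normalization. It was 15 with array weights (median 0.158), where 25.2% of all genes were higher and 21.5% lower. With the covariate it was 1, where 7.51% of all genes were higher. The median of this contrast ran from -0.138 to 0.156 with 1 array left out. The untagged count stayed at 0 in all 24 alternatives, replicate block included, with medians of 0.005 to 0.227 when 1 array was left out. Psmb10 in thymus, 0.19 and not called, was -1.07 with the covariate and -0.40 without adult thymus replicate 2 (-0.40 to 0.48 with 1 array left out). The cause of these shifts was not tested. Where no share over all genes is given, here or above, a count does not set the proteasome genes apart from the rest. The covariate takes a residual degree of freedom, and leaving out an array leaves 2 in its group.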
